A study of Mus musculus with 6 samples.

Results

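The receptors Lgr4, Lgr5 and Lgr6 and the ubiquitin ligases Rnf43 and Znrf3 are described here in sorted mouse hair follicle stem cells. The 5 genes were taken by name, through their Entrez identifiers, from 36528 gene identifiers counted in each library, and all 5 were listed and tested. R-spondins are secreted proteins that bind Lgr4, Lgr5 or Lgr6 together with Rnf43 or Znrf3. Rnf43 and Znrf3 are transmembrane RING ligases that ubiquitinate Frizzled receptors and so remove them from the cell surface, and binding of R-spondin and an Lgr receptor clears the ligase and leaves more Frizzled there. In mouse skin Lgr5 is known as a marker of the lower bulge and hair germ, Lgr6 as a marker of the isthmus above the bulge, and Lgr4 as a broadly expressed receptor.

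Polyadenylated RNA had been sequenced from skin cells that were CD49f-positive, CD34-positive and GFP-negative, a sort for hair follicle stem cells of the bulge outside the reporter-positive population. The cells came from Lgr5-DTReGFP mice, which express the diphtheria toxin (DT) receptor and eGFP from the Lgr5 locus, and DT kills cells that carry the receptor. The tested mice were given DT and the controls saline, with 3 libraries in each group, and both groups carried the allele. The labels used here do not give the number of altered Lgr5 copies, the dose, the time after DT, or the sex or age of the mice. They do not say that libraries came from separate animals, and mice that lack the receptor were not among those given DT, so an action of DT itself on sorted cells without the receptor cannot be told apart from a change that followed the loss of cells with it.

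The libraries held 15300755 to 25558859 reads in genes. In the DT libraries Cd34 was at 2348 ± 403 CPM, against 2804 ± 355 CPM in the saline libraries. CPM are read counts scaled to the size of the library after TMM normalization, which adjusts those sizes for composition. The bulge keratin Krt15 was at 33362 ± 9506 CPM in DT and 34812 ± 6583 CPM in saline (SD, n = 3 each). RNA of the sort marker Cd34 and of Krt15 was thus present in both groups. On the second axis of a principal component analysis, with 14.2% of the variation, saline library 1 stood at 56.9 and the other saline libraries at -30.7 and -34.5. Of 15132 genes tested, 2600 were higher and 1795 lower in DT at an adjusted p under 0.05 (edgeR quasi-likelihood test, Benjamini-Hochberg), or 2099 and 2316 when libraries were scaled by their size alone.

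The loci, as RefSeq gene spans, lie on 4 chromosomes of the GRCm38 build. Lgr4 (Entrez 107515) spans chr2:109917647-110014257 on the plus strand. Lgr5 (Entrez 14160) spans chr10:115450314-115587780 on the minus strand, and Lgr6 (Entrez 329252) spans chr1:134983300-135105374, also on the minus strand. The longest coding transcript of each Lgr receptor has 18 exons in GENCODE M21. Rnf43 (Entrez 207742, 10 exons) spans chr11:87663087-87735539 on the plus strand and Znrf3 (Entrez 407821, 9 exons) spans chr11:5276329-5444847 on the minus strand. The longest run of bases that any pair of the 5 transcripts shared was 23, between Lgr4 and Znrf3, and the 3 receptors shared runs of at most 18. Other annotated genes overlap the loci of Lgr5 and Rnf43, but 0 bases of their exons overlap exons of either.

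Since all 5 genes moved the same way, the 250 bases before the transcription start were read from RefSeq (GRCm38.p6), which had entries for 3 of the 5, namely Lgr4, Lgr6 and Rnf43. They are shown for Lgr4 (chr2:109917397-109917646, plus strand), Lgr6 (chr1:135105375-135105526, minus strand) and the start of Rnf43 inside its gene (chr11:87699647-87699896, plus strand). For Lgr6 the 98 bases next to the start at 135105276 are left out, because they lie inside the wider RefSeq gene span. The other Rnf43 window, just before the RefSeq span, is not shown because it lies in an exon of the GENCODE gene, which begins further upstream, at 87662722. Capitals mark matches to 3 motifs searched on both strands, the TCF/LEF core (as AACAAAG, as ATCAAAG, as TACAAAG or as TTCAAAG), the CCAAT box (CCAAT) and the GC box (GGGCGG).
Lgr4: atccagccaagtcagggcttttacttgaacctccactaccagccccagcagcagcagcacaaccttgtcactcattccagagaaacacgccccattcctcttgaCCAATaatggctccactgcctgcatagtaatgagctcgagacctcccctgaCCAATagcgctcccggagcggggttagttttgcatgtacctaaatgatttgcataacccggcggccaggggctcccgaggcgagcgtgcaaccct
Lgr6: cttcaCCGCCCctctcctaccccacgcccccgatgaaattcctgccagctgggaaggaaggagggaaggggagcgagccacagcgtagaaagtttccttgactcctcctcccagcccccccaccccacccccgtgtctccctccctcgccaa
Rnf43: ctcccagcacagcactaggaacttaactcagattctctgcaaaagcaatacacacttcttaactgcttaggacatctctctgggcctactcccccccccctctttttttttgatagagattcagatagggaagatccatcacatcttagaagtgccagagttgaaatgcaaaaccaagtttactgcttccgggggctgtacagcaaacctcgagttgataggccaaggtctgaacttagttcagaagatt
The Lgr4 window held the CCAAT box 146 and 95 bases before the start, and the Lgr6 window held a reverse GC box 245 bases before its start. No TCF/LEF word stood in the windows of these 3 genes. Of 32851 RefSeq windows of this length, 14.8% held a TCF/LEF word, 33.8% a CCAAT box and 32.7% a GC box. The windows also differed in base composition, with 55.6% G and C for Lgr4, 65.1% for the part shown of Lgr6 and 45.2% for Rnf43.

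Lgr4 was the most abundant of the 5 genes and Lgr5 the least, on a scale that divides reads by gene length (RPKM, reads scaled to the kilobases of the gene and the size of the library, with the size factors of the authors). Lgr4 was at 89.6, 90.3 and 85.3 RPKM in DT libraries 1 to 3, against 140.2, 131 and 122 RPKM in saline libraries 1 to 3. Lgr6 was at 22.0, 22.1 and 22.8 RPKM in DT and at 64.5, 44.5 and 39.6 RPKM in saline. Lgr5 was at 1.38, 1.42 and 1.46 RPKM in DT and at 3.45, 6.30 and 4.64 RPKM in saline. For each receptor the highest DT library lay below the lowest saline library. Saline library 1 had the highest Lgr4 and Lgr6 and the lowest Lgr5 of its group, so the saline libraries did not rank alike for the 3 receptors.

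Of the ligases, Znrf3 was the more abundant, at 24.3, 24.4 and 23.7 RPKM in DT and 33.7, 29.8 and 29.4 RPKM in saline. Rnf43 was at 5.04, 3.83 and 4.07 RPKM in DT and at 7.55, 8.51 and 6.78 RPKM in saline. Again the groups did not overlap for either gene. DT library 1 had the highest Rnf43 of its group, and saline library 1 had the highest Znrf3.

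**Figure D1:**
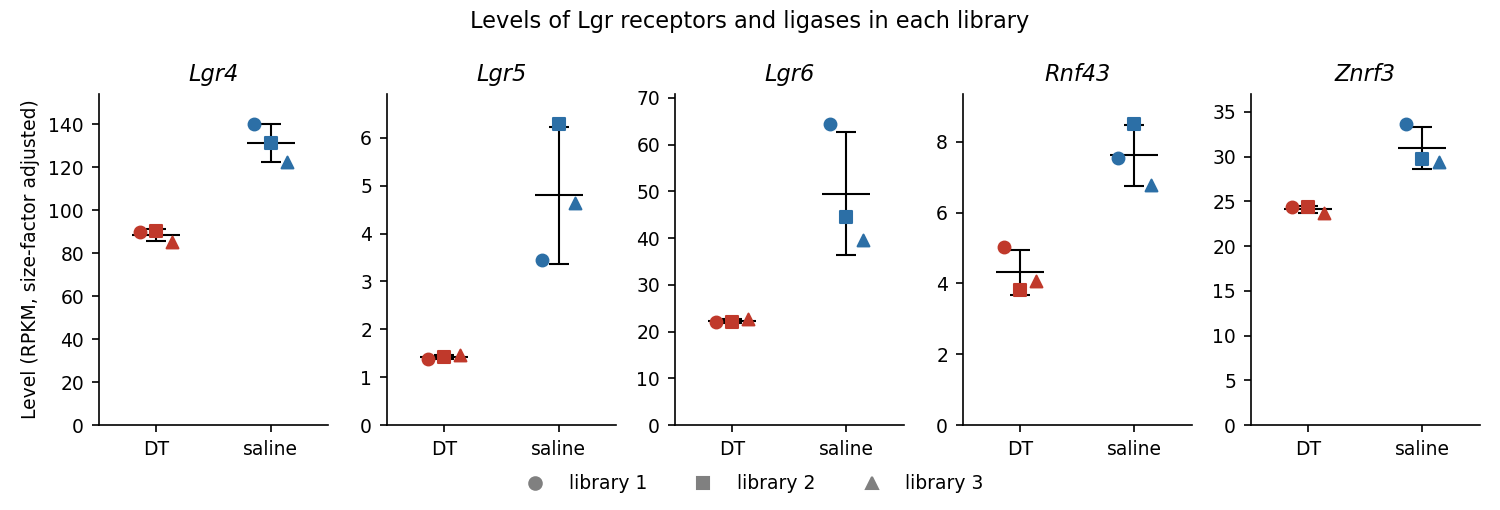
Level of each gene in RPKM (vertical axes, each from 0) in the 3 DT (red) and 3 saline (blue) libraries, with symbols for the libraries and black bars for the mean ± SD. The DT points lie below the saline points in all 5 panels, with Lgr5 at 1.38 to 1.46 in DT and 3.45 to 6.30 in saline.

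The order of mean levels in the DT libraries was Lgr4, Znrf3, Lgr6, Rnf43 and Lgr5. In the saline libraries it was Lgr4, Lgr6, Znrf3, Rnf43 and Lgr5, so on this scale Lgr6 and Znrf3 stood in opposite order in the groups. The DT mean of Znrf3 was only 1.08 times that of Lgr6. Their order depends on the gene lengths used for RPKM, whose annotation is not given, so it is not settled. In neither group did the ranges of neighbours in the order overlap. The closest neighbours were Znrf3 and Lgr6 in DT, at 23.7 to 24.4 and 22.0 to 22.8 RPKM. In saline the ranges of Rnf43, at 6.78 to 8.51 RPKM, and Lgr5, at 3.45 to 6.30 RPKM, came nearest to each other.

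Taken as a sum, the 3 receptors came to 112 ± 2.24 RPKM in DT and 186 ± 21.0 RPKM in saline, and both ligases to 28.4 ± 0.860 RPKM in DT and 38.6 ± 2.55 RPKM in saline (SD, n = 3 each). Lgr4 made up 78.9% ± 0.847 of the receptor sum in DT and 71.0% ± 3.19 in saline. The share of Lgr6 was 19.9% ± 0.792 in DT and 26.4% ± 3.98 in saline, and that of Lgr5 was 1.27% ± 0.0562 in DT and 2.64% ± 0.910 in saline. The shares of the groups did not overlap for any of the 3 receptors, where 45.9% of all single genes tested had CPM levels that did not overlap, and the 3 shares are not independent because they sum to the whole. The receptor sum was 3.85, 4.04 and 3.95 times the ligase sum in DT libraries 1 to 3, and 5.05, 4.75 and 4.60 times in saline libraries 1 to 3. Rnf43 was 15.1% ± 1.83 of the ligase sum in DT and 19.8% ± 2.15 in saline.

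**Figure D2:**
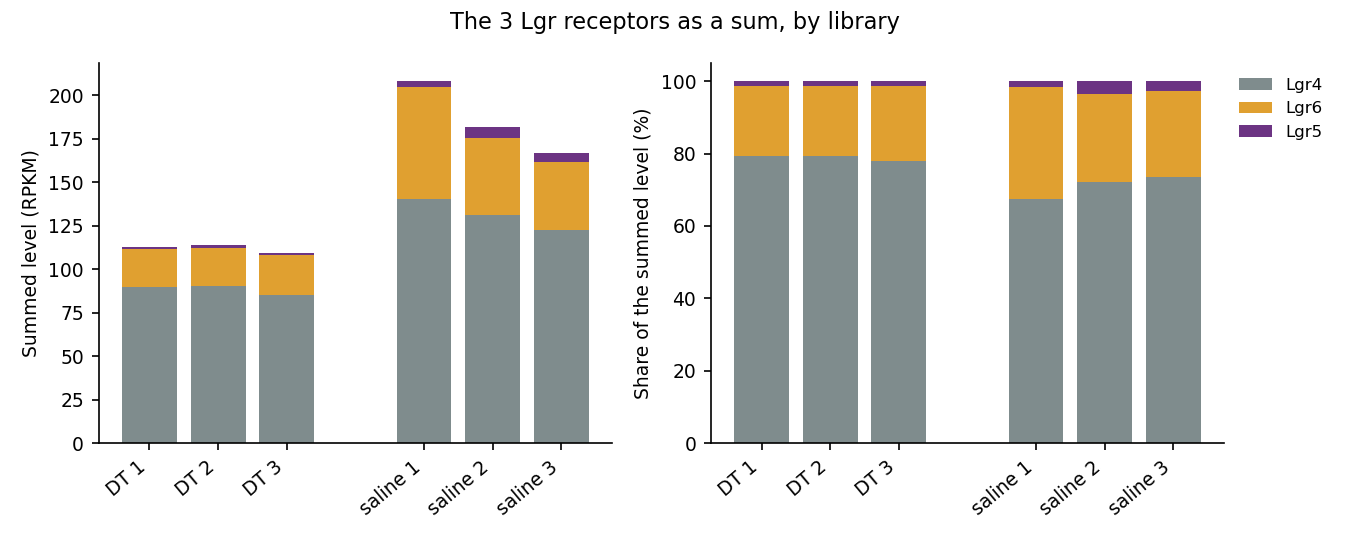
Summed level of Lgr4, Lgr6 and Lgr5 in RPKM (left) and the share of each in that sum in percent (right), as stacked bars for the 3 DT and 3 saline libraries. The sum is 109.6 to 114 in DT and 166 to 208 in saline, and Lgr4 takes 77.9% to 79.4% of it in DT and 67.4% to 73.4% in saline.

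All 5 genes fell in the DT libraries (edgeR, adjusted p under 0.05). Among all genes tested, 11.9% were called lower and 29.0% were called in either direction. The median log2 fold change, DT minus saline, was -0.82 over the 5 genes and -0.01 over all genes tested. The libraries of each of the 5 genes did not overlap, with DT below saline, which held for 20.5% of all genes tested. These are bulk libraries, in which fewer cells of a type and less RNA per cell cannot be told apart.

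Lgr5, the receptor whose locus carries the toxin receptor, had the lowest fold change of the 5. It had 151, 104 and 182 reads in DT libraries 1 to 3, against 418, 684 and 534 reads in saline libraries 1 to 3, or 7.11 ± 0.143 CPM in DT and 24.0 ± 7.20 CPM in saline. Its log2 fold change was -1.76 (SE 0.24, 95% interval -2.30 to -1.22, adjusted p = 0.000864), which left 29.6% of the saline level. Lgr5 and Lgr6, 2 of the 5, were called at 1 or more lower on the log2 scale, as were 5.25% of all genes tested. Of all genes tested, 1.96% had a lower fold change. The spread of Lgr5 over the DT libraries, a coefficient of variation of 2.02%, was smaller than the 8.45% that counting alone gives at these reads, so the closeness of the DT values is not a measure of their precision. In saline the spread was 29.9%, against 4.35% from counting.

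Lgr6, the receptor linked to the isthmus, fell to 196 ± 4.62 CPM in DT, against 436 ± 116 CPM in saline. Its log2 fold change was -1.16 (SE 0.18, interval -1.55 to -0.76, adjusted p = 0.00151), or 44.9% of the saline level, and -0.94 without saline library 1, which had the highest level. In the same libraries 2 of 5 markers of the isthmus and infundibulum fell, Lrig1 (log2 -0.62) and Krt79 (-1.37), where 11.9% of all genes tested were called lower. The 5 together summed to 239 to 279 CPM in DT and 311 to 371 CPM in saline, and Plet1, at 176 ± 18.9 CPM in DT and 186 ± 25.4 CPM in saline, did not pass (log2 -0.08, adjusted p = 0.712). The part of such cells in the fall of Lgr6 was not tested.

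Lgr4 was at 475 ± 18.1 CPM in DT and 706 ± 49.4 CPM in saline. It had the smallest fall of the 3 receptors, with a log2 fold change of -0.57 (SE 0.12, interval -0.84 to -0.31, adjusted p = 0.00661), or 67.3% of the saline level.

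Rnf43 fell to 21.4 ± 3.64 CPM in DT, against 37.9 ± 4.42 CPM in saline, with 278 to 545 reads in DT and 774 to 917 reads in saline. Its log2 fold change was -0.82 (SE 0.18, interval -1.22 to -0.42, adjusted p = 0.0084), or 56.7% of the saline level. Znrf3 was at 203 ± 5.82 CPM in DT and 261 ± 20.2 CPM in saline. With a log2 fold change of -0.36 (SE 0.12, interval -0.63 to -0.10, adjusted p = 0.0452), or 77.8% of the saline level, it was the smallest change of the 5 and the closest to the threshold. The call of Znrf3 held in 7 of 17 alternative fits and was lost without DT library 2 or 3 or without any 1 saline library (adjusted p up to 0.135), though its sign was negative in all 17.

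The submitters' sample identifiers form 2 number series, with 2 libraries of each group in the larger and 1 of each in the smaller. In the larger series Lgr5 and Lgr6 passed (log2 -1.80 and -1.31, adjusted p = 0.0171 and 0.0116). Lgr4 (-0.59, adjusted p = 0.0843), Rnf43 (-0.85, adjusted p = 0.0692) and Znrf3 (-0.38, adjusted p = 0.238) did not pass there. The smaller series gave no test, and its DT library minus its saline library was -0.52 for Lgr4, -1.67 for Lgr5, -0.80 for Lgr6, -0.74 for Rnf43 and -0.32 for Znrf3 in log2 CPM.

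**Figure D3:**
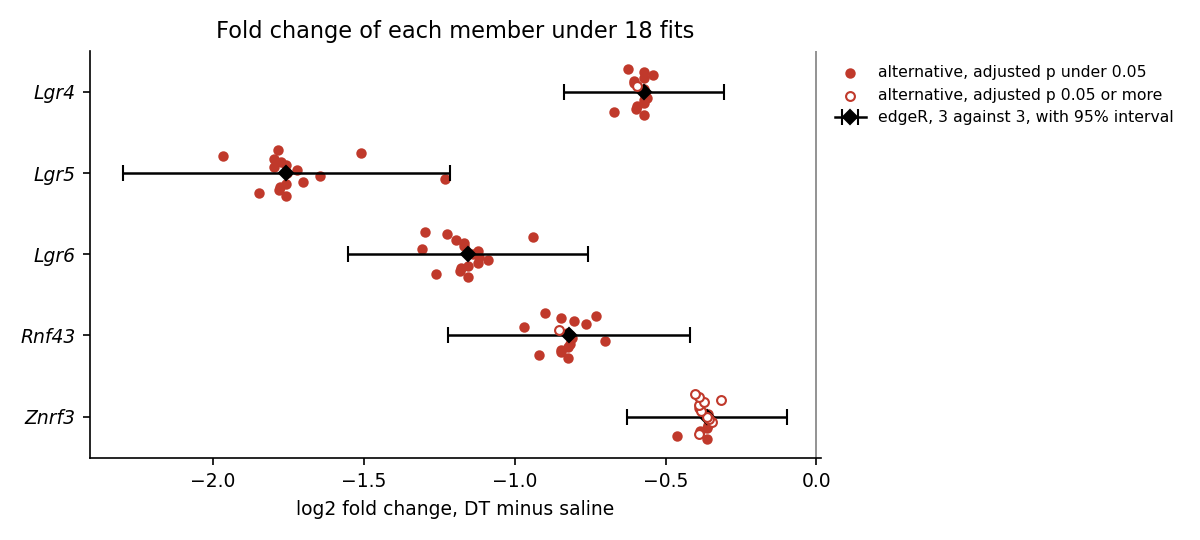
Log2 fold change, DT minus saline (horizontal axis), of each gene. Black diamonds with 95% intervals are the edgeR fit on all 6 libraries, and circles the 17 alternative fits, filled where the adjusted p is under 0.05. All points lie below 0, Lgr5 between -1.97 and -1.23 and Znrf3 between -0.46 and -0.32, and most Znrf3 circles are open.

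The sizes of the falls were compared through the log2 ratio of counts of 2 genes within a library, a value that does not depend on how libraries are scaled to each other. For 7 of the 10 pairs the DT and saline libraries did not overlap. That compares ratios, and for the levels of single genes the share without overlap is the 45.9% given above. Each of these had an exact two-sided permutation p of 0.1, which is the smallest that 3 against 3 libraries allow, and 0.143 adjusted over the 10 pairs, so no pair could pass 0.05. The level of Lgr4 in RPKM was 64.7, 63.6 and 58.5 times that of Lgr5 in DT libraries 1 to 3, against 40.6, 20.8 and 26.4 times in saline libraries 1 to 3. The mean log2 ratio of their counts was 1.14 higher in DT.

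The widest gap was between Lgr5 and Znrf3, whose log2 ratio was -4.83 ± 0.0595 in DT and -3.48 ± 0.525 in saline, a difference of -1.35 (SD, n = 3 each). Lgr6 to Znrf3 differed by -0.76 and Lgr5 to Rnf43 by -0.88, in each case lower in DT. Rnf43 to Znrf3 differed by -0.47. Lgr4 to Lgr6 was higher in DT by 0.55, and Lgr4 to Znrf3 was lower in DT by 0.21. The 95% intervals of the fold changes, given above, overlapped for Rnf43 and Znrf3, Lgr4 and Lgr6, and Lgr4 and Znrf3. They overlapped narrowly for Lgr5 and Rnf43. They did not for Lgr5 and Znrf3, Lgr4 and Lgr5, or Lgr6 and Znrf3.

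The libraries overlapped for Lgr5 to Lgr6, Lgr6 to Rnf43 and Lgr4 to Rnf43. The log2 ratio of Lgr5 to Lgr6 was -4.80, -4.76 and -4.77 in DT, against -5.03, -3.63 and -3.90 in saline (difference -0.59, exact permutation p = 0.4). Saline library 1 lay below the DT libraries there and the other saline libraries above them, so whether Lgr5 fell further than Lgr6 was not settled by these libraries.

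**Figure D4:**
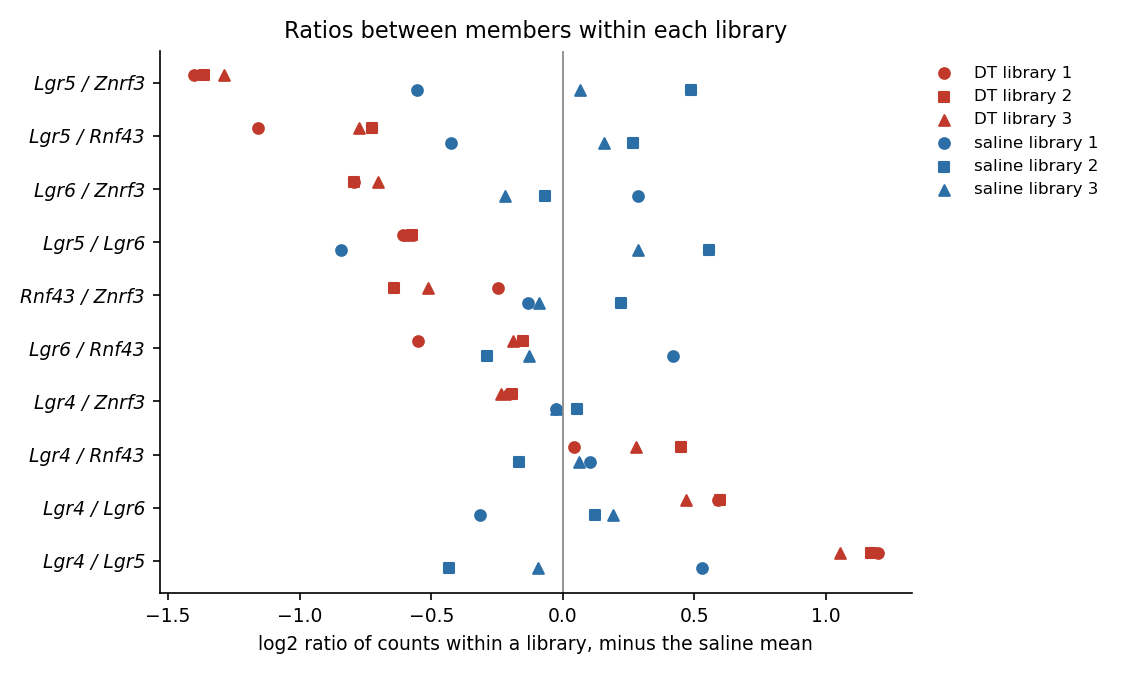
Log2 ratio of the counts of 2 genes within a library, minus the mean of the saline libraries (horizontal axis), for the 10 pairs, with DT libraries in red above saline libraries in blue. Red and blue are apart for 7 pairs, most widely for Lgr5 to Znrf3 at a difference of -1.35, and saline library 1 (blue circle) lies on the DT side of Lgr5 to Lgr6.

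The ligands of the receptors were scarce in the sorted cells. Rspo2 and Rspo4 had 0 reads in all 6 libraries, and Rspo1 had 3 reads in DT library 1 and 0 elsewhere. A count of 0 allows up to 3 reads in a library, for counting error only. Rspo3 had 8, 7 and 32 reads in DT and 34, 37 and 32 reads in saline (log2 -1.05, 95% interval -2.33 to 0.22, adjusted p = 0.194). DT library 3 stood near the saline level when scaled, and without it the log2 fold change was -1.85 (adjusted p = 0.0957). Norrin (Ndp), a Frizzled4 ligand reported to bind Lgr4 as well, had 11 to 14 reads in DT and 31 to 40 reads in saline (log2 -1.23, adjusted p = 0.0874). Neither of the 2 ligands tested passed.

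Among the Wnt receptors, which include the Frizzled proteins that Rnf43 and Znrf3 act on, 5 of 16 fell and 0 rose. Their median log2 fold change was -0.43, and 11.9% of all genes tested were called lower and 17.2% higher. Fzd1 was at 71.9 ± 5.47 CPM in DT and 143 ± 24.3 CPM in saline (log2 -0.99, adjusted p = 0.0014). Fzd2 was at 37.9 ± 8.16 CPM in DT and 85.1 ± 23.8 CPM in saline (log2 -1.16, adjusted p = 0.00492), and Fzd7 was at 98.1 ± 13.6 CPM in DT and 175 ± 43.7 CPM in saline (log2 -0.83, adjusted p = 0.0097). The groups did not overlap for these 3, nor for Fzd9 and Lrp6. DT lay below saline without overlap for 20.5% of all genes tested. Fzd9 had 0, 0 and 10 reads in DT libraries 1 to 3, against 90, 65 and 44 reads in saline (adjusted p = 0.00841, and at most 0.0321 when any 1 library was left out). Its fitted log2 fold change was -4.20, but -8.93 without DT library 3, so with so few DT reads its size is not settled. Lrp6, the co-receptor of Frizzled, fell (log2 -0.64, adjusted p = 0.0115), but not without saline library 2 (adjusted p = 0.0539). Fzd3 and Fzd6 did not pass, at 73.3 ± 8.88 and 65.9 ± 17.6 CPM in DT and 76.3 ± 8.15 and 69.4 ± 8.60 CPM in saline (log2 -0.06 and -0.07).

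Summed over the 10 Frizzled genes, the level was 66.5 ± 8.42 RPKM in DT and 111 ± 21.8 RPKM in saline. It stood at 2.54, 2.06 and 2.42 times the ligase sum in DT libraries 1 to 3, and at 3.24, 2.88 and 2.49 times in saline libraries 1 to 3. The lowest saline library and the highest DT library overlapped in this ratio.

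Of 21 genes for Wnt ligands and their secretion, 12 were tested, 1 rose and 2 fell, with a median log2 fold change of -0.04. Calls over all genes tested came to 17.2% higher and 11.9% lower. Wnt3 was at 3.86 ± 2.85 CPM in DT and 10.5 ± 1.43 CPM in saline (log2 -1.42, or -2.27 without DT library 3), and did not pass without DT library 1 or 2 or saline library 2 or 3 (adjusted p up to 0.124). Wnt7b was at 20.4 ± 1.73 CPM in DT and 42.7 ± 22.8 CPM in saline (log2 -1.07, or -0.56 without saline library 1), and did not pass without any 1 DT library (adjusted p up to 0.0897). Wnt9a, at 29 to 37 reads in DT and 5 to 15 reads in saline, rose (log2 1.93), but not without DT library 2 or 3 or saline library 2 or 3 (adjusted p up to 0.136). Wls, which carries Wnt proteins to the surface, was at 385 ± 21.3 CPM in DT and 302 ± 37.6 CPM in saline and did not pass (log2 0.35, adjusted p = 0.0734).

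Where 11.9% of all genes tested were called lower and 17.2% higher, 0 of 19 cytoplasmic components rose and 2 fell (median -0.29). These were Dvl1, which couples Frizzled to the pathway (log2 -0.96, adjusted p = 0.0277), and the casein kinase Csnk1g2 (log2 -1.26, adjusted p = 0.0356), whose groups overlapped. Dvl1 did not pass without any 1 DT library or saline library 1 (adjusted p up to 0.0907, log2 -0.60 without saline library 1). Csnk1g2 did not pass without DT library 2 or 3 or saline library 1 or 2 (adjusted p up to 0.117, log2 -0.78 without saline library 1). Ctnnb1, the gene of beta-catenin, was at 312 ± 27.0 CPM in DT and 277 ± 62.1 CPM in saline (log2 0.18, adjusted p = 0.452).

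Of 10 Wnt target genes, 8 were tested, 1 rose and 1 fell (median -0.60), where 17.2% of all genes tested were called higher and 11.9% lower. Tcf7, a TCF/LEF transcription factor, rose (log2 1.30, adjusted p = 0.00218). Ascl2, a transcription factor of intestinal stem cells, had 11 to 17 reads in DT and 43 to 58 reads in saline (log2 -1.78, adjusted p = 0.015, and 0.0576 without DT library 3). Axin2, a feedback inhibitor widely used as a readout of the pathway, had 9.28, 7.59 and 7.30 CPM in DT and 18.4, 12.3 and 8.29 CPM in saline and did not pass (log2 -0.69, interval -1.35 to -0.03, adjusted p = 0.107). It passed without saline library 3 (log2 -0.93, adjusted p = 0.0366), and leaving out saline library 1 gave a log2 value of -0.37.

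Relatives of the ligases with the same protease-associated and RING domains were read against the 11.9% of all genes tested that were called lower. Of 9, 5 were tested and 1 fell, Rnf167 (log2 -0.49, adjusted p = 0.0331), which did not pass without DT library 2 or 3 or saline library 2 or 3 (adjusted p up to 0.112). Rnf13, at 298 ± 26.8 CPM in DT and 277 ± 62.7 CPM in saline, had a log2 fold change of 0.11 (adjusted p = 0.67). The hormone and relaxin receptors with leucine-rich repeats share the fold of the Lgr receptors. All 5 of 5 had too few reads to test in the fit on all 6 libraries. Among them Rxfp1 had 0, 11 and 19 reads in DT libraries 1 to 3 and 0 in each saline library.

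Of 4 genes reported to act on the receptors or ligases, 1 rose. Nedd4l, a ubiquitin ligase reported to degrade Lgr5, was at 123, 153 and 154 CPM in DT libraries 1 to 3, against 52.6, 52.6 and 55.3 CPM in saline libraries 1 to 3. All DT libraries lay above all saline libraries, which held for 25.4% of all genes tested. Its log2 fold change was 1.42 (SE 0.14, adjusted p = 0.000112), and 17.2% of all genes tested were called higher. Its relative Nedd4 (log2 -0.16, adjusted p = 0.396), the deubiquitinase Usp42 (-0.33, adjusted p = 0.208) and the scaffold Iqgap1 (-0.01, adjusted p = 0.953) did not pass.

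**Figure D5:**
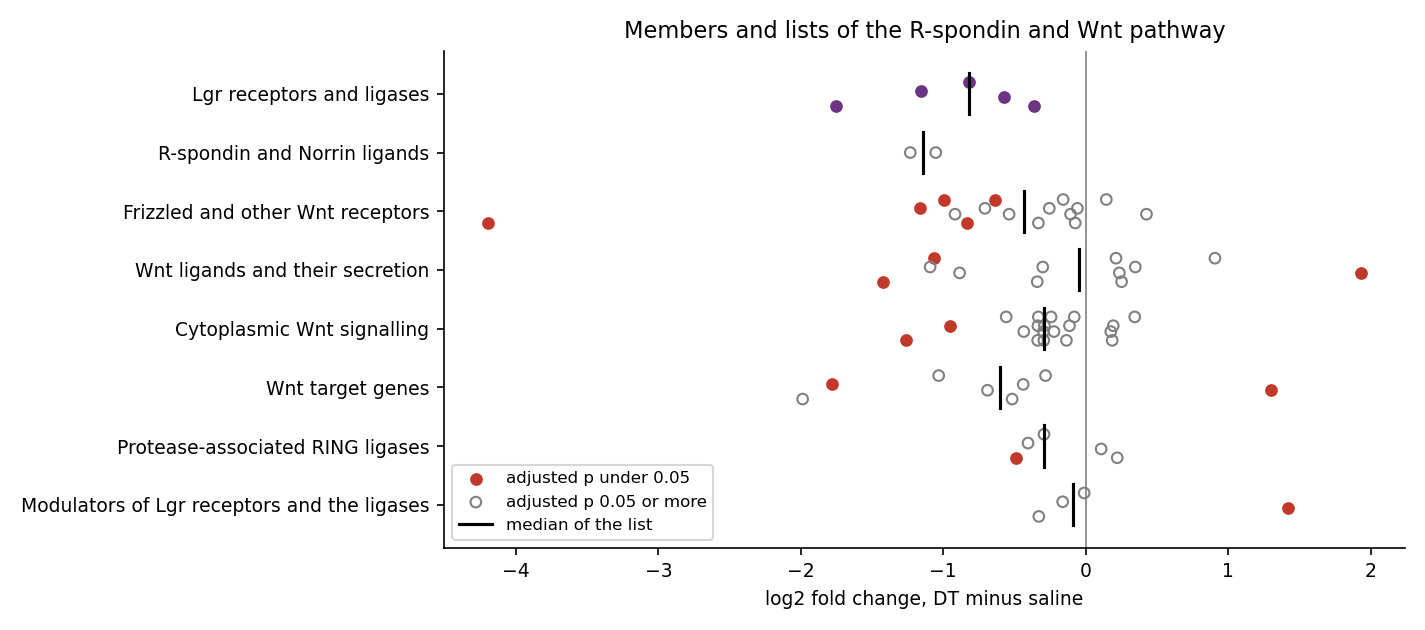
Log2 fold change, DT minus saline (horizontal axis), of the tested genes of each list, filled where the adjusted p is under 0.05, with black bars for the list median. The 5 receptors and ligases (purple) all lie below 0, at a median of -0.82, and the point at -4.20 among the Wnt receptors is Fzd9, whose value rests on 10 DT reads.

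Markers of other kinds of cells were also read in these libraries, where 11.9% of all genes tested were called lower and 17.2% higher. Of 8 immune markers 7 were tested and 5 fell, and the 8 summed to 110 to 138 CPM in DT and 176 to 255 CPM in saline. Of 4 genes listed for the hair germ 3 fell. The 4 summed to 148 to 206 CPM in DT and 225 to 267 CPM in saline. The 3 were Gli1, Gli2 and Ptch1, all genes of the Hedgehog pathway, so they are not independent marks of hair germ cells. The other, Cdh3, did not fall, at 128 ± 32.7 CPM in DT and 99.7 ± 25.9 CPM in saline (log2 0.36, adjusted p = 0.27). Of 6 fibroblast markers 2 were tested and 1 fell, with sums of 9.47 to 16.9 CPM in DT and 23.5 to 41.3 CPM in saline, and Lum had 0 reads in all libraries. Melanocyte markers fell in 2 of the 3 tested, of 5 listed, and summed to 7.92 to 10.5 CPM in DT and 13.5 to 27.4 CPM in saline. Suprabasal epidermal markers fell in 2 of 5 and summed to 38.5 to 46.4 CPM in DT and 75.8 to 132 CPM in saline. All 4 proliferation markers rose and summed to 380 to 800 CPM in DT and 45.6 to 72.2 CPM in saline, among them Cdk1 at 167 ± 64.3 CPM in DT and 9.62 ± 0.569 CPM in saline. Acta2, a muscle and pericyte marker and the 1 tested of 4, rose to 23.1, 88.2 and 102 CPM in DT libraries 1 to 3, against 0.870, 0.601 and 1.13 CPM in saline libraries 1 to 3, while Rgs5 had 0 reads in all. Sebaceous gland markers fell in 1 of the 3 tested, of 4 listed, and of the endothelial and the Schwann markers 0 of the 2 tested in each list passed. The part of these shifts in the falls of the receptors and ligases was not tested.

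Of the 9 bulge markers 4 fell and 0 rose, where 11.9% of all genes tested were called lower. The sum of the 9, mostly Krt15, overlapped between the groups, at 27452 to 47554 CPM in DT and 34399 to 46974 CPM in saline. The 4 were Lhx2 (log2 -1.09), Col17a1 (-0.83), Sox9 (-0.71) and Nfatc1 (-0.69). Itga6, the gene of CD49f, was at 98.8 ± 10.5 CPM in DT and 122 ± 20.5 CPM in saline and did not pass (log2 -0.31, adjusted p = 0.16). Hbegf, whose human ortholog is the toxin receptor, was called higher in DT (log2 3.46), and whether reads of the receptor that the mice carry were counted there was not tested.

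Genes whose levels followed the members most closely were ranked by Pearson's r of log2 CPM over the 6 libraries, among 10096 other genes with a mean of at least 5 CPM. This is a description, since the 6 points fall into 2 treatment groups and share depth and scaling. Lgr5 was followed most closely by Tll1 (r = 0.998), Zmym3 (0.992) and Marf1 (0.991). For Lgr6 these were Creld1 (0.999), Igf1r (0.999) and Cachd1 (0.998), and those near Lgr4 included Nme3 (0.996) and Dhx57 (0.996). Rnf43 had Igfbp6 (0.998), Kat6b (0.996) and Fam117a (0.996) nearest to it, and Znrf3 had Dip2c (0.996), Dhx57 (0.995) and Mical3 (0.995). Within the 5, Lgr6 and Znrf3 were the closest pair (r = 0.991), and by r to Lgr6 Znrf3 ranked 19 among the 10096 genes. The least close were Lgr5 to Znrf3 (0.824) and Lgr5 to Lgr6 (0.827). By r to Lgr5, Znrf3 ranked 1273 and Lgr6 ranked 1241.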

How the data were processed

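Each library's deposited file holds a count of uniquely aligned reads per gene model and an RPKM scaled with size factors, both made by the authors, per the file headers. The aligner was GSNAP and the build GRCm38, per the submitters' processing notes, with the version, annotation and use of strand not given in the sources used here. The deposited RPKM was an exact rescaling of the deposited counts. Identifiers were matched to RefSeq, which named 31049 of 36528. The test on counts was that of edgeR 4.0.16 under R 4.3.3 (TMM, filterByExpr with a minimum count of 10 and total of 15, robust quasi-likelihood test, no covariate), adjusted over 15132 genes, and the SE is the size of the log2 fold change over the root of F. Alternatives used DESeq2 1.42.0, limma 3.58.1 (voom, and log2(RPKM + 1) or log2(RPKM + 0.1)), other scaling, filters, blocks and left-out libraries. Ratios used a prior count of 0.5 and SciPy 1.17.1. Libraries were numbered in record order, which pairs none, and p-values measure the spread between libraries, which may be technical. Genes named beside the 5 were list members past the test or among the 4 smallest p of a list, markers of the sort, the model and other cells, the 3 nearest by r (1 of them is not reported here), and some chosen after their values were seen (Fzd3, Fzd6, Ctnnb1, Wls, Rnf13). The members, lists, rules and alternatives were chosen with earlier results of these data known.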

Additional observations from a re-analysis of the deposited data

How the results depend on the processing

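Lgr5 and Lgr6 passed in all 17 alternative fits, and all 5 genes had a negative log2 fold change in each. With the larger identifier series alone, 1570 genes passed in place of 4395, and Lgr4 (-0.59), Rnf43 (-0.85) and Znrf3 (-0.38) did not; fewer libraries entered that fit. Znrf3 also did not pass with no filter on low counts (-0.39), with limma on log2(RPKM + 1) (-0.34) or log2(RPKM + 0.1) (-0.36), or with the identifier series as a block (-0.36), and the cause was not tested. Leaving out 1 library gave 2581 to 4871 genes, -0.62 to -0.54 for Lgr4, -1.97 to -1.51 for Lgr5, -1.30 to -0.94 for Lgr6, -0.97 to -0.73 for Rnf43 and -0.40 to -0.32 for Znrf3, and 7 to 8 pairs of genes whose libraries did not overlap. With consecutive identifiers as a replicate block, 4592 genes passed and no call of the 5 changed (log2 -1.72 for Lgr5, -0.36 for Znrf3). In every pair of such identifiers 9 of 10 ratios moved the same way. This is a looser measure than libraries that do not overlap, and the 10 ratios share the same 5 genes. Deviations of paired libraries correlated at 0.0132, 0.0159 and 0.165. Unpaired libraries were not compared in the same way, so whether the identifiers pair the libraries was not settled. At 104 to 182 reads, counting limits Lgr5 in DT most.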
